A study of Mus musculus with 19 samples.

Results

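The 10 glutathione transferases measured here are Gsta1, Gsta2, Gsta3 and Gsta4 of the alpha class, Gstm1, Gstm2 and Gstm3 of the mu class, Gstp1 of the pi class, and the membrane-bound enzymes Mgst1 and Mgst3. They were taken by symbol from the table of expression values, where each of the 10 had 1 entry among 52110 named entries. Whole liver of wild-type mice was sequenced in 19 samples. The animals ate normal chow (NC) or a choline-deficient, amino acid-defined, high-fat diet (CDAHFD), which is used to produce steatohepatitis, and underwent either remote ischemic conditioning of a limb (RIC), in which blood flow to the limb is stopped and restored, or a sham procedure. The groups were NC_sham (n = 5), NC_RIC (n = 5), CDAHFD_sham (n = 5) and CDAHFD_RIC (n = 4). Strain, sex, age, feeding time and the conditioning schedule are not given in the labels. The labels number replicates without saying that each is a separate animal, so p-values reflect only how much these samples differ, which may be technical.

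Glutathione transferases join the tripeptide glutathione to reactive electrophiles, such as drug metabolites and the aldehydes that form when lipids are oxidised, and the conjugates then leave the cell through export pumps. The cytosolic enzymes work as dimers within their class, while the microsomal enzymes sit in membranes and also reduce lipid hydroperoxides. In liver many of these genes are induced through the transcription factor NRF2 (gene Nfe2l2), which binds the antioxidant response element together with small MAF proteins when its inhibitor KEAP1 releases it.

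Most members lie in a pair of gene clusters. On chromosome 9 lie Gsta4 (chr9:78182774-78209349, plus strand), Gsta1 (chr9:78230656-78242684, plus strand) and Gsta2 (chr9:78331018-78355788, minus strand). On chromosome 3 lie Gstm3 (chr3:107963696-107969283), Gstm2 (chr3:107981702-107986453) and Gstm1 (chr3:108012255-108017973), all on the minus strand. The remaining members stand apart from these, namely Gsta3 (chr1:21240589-21265661, plus strand), Mgst3 (chr1:167371966-167393841, minus strand), Mgst1 (chr6:138140316-138156755, plus strand) and Gstp1 (chr19:4035407-4037985, minus strand). Gene spans are those of GENCODE M21 on the mm10 assembly.

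The promoters are shown for the members whose levels the comparisons below turn on, and for the 2 others in which a searched motif lay outside or at the edge of the annotated first exon. Each is up to 250 bases before the RefSeq transcript start (GRCm38.p6, the assembly of mm10), read 5′ to 3′ on the gene's strand. Capitals mark a motif match. The Gstp1 stretch was cut at position -44, inside an annotated first exon.
Gsta1, chr9:78230419-78230668, plus strand: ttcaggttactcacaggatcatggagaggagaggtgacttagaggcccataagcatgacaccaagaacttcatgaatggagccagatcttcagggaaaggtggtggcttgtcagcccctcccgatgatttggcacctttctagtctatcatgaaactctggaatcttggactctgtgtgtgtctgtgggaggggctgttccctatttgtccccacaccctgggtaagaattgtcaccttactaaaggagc
Gsta2, chr9:78347146-78347395, minus strand: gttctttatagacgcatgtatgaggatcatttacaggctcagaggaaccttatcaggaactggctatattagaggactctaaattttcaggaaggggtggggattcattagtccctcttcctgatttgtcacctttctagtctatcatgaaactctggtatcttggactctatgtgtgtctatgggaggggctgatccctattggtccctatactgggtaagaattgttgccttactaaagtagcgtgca
Mgst3, chr1:167393842-167394091, minus strand: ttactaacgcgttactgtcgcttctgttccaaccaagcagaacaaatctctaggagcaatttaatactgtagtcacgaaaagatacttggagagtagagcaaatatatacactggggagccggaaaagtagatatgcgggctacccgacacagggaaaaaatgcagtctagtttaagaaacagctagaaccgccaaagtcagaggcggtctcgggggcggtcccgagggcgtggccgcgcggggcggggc
Gsta3, chr1:21240335-21240584, plus strand: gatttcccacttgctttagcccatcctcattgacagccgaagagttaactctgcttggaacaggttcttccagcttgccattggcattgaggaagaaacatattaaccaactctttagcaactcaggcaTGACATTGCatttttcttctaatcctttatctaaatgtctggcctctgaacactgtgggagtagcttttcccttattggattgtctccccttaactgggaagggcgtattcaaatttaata
Gstp1, chr19:4037956-4038162, minus strand: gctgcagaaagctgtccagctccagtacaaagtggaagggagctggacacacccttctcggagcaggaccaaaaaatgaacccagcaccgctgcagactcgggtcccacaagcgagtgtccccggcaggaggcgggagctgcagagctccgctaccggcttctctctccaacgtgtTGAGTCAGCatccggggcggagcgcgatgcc

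The core of the antioxidant response element was searched on both strands as TGACNNNGC and as its variant TGAGNNNGC, and the AP-1 site, which can overlap either, as TGANTCA. Of 32851 mouse promoters of the same length, 10.2% held TGACNNNGC, 14.4% held TGAGNNNGC and 6.75% held TGANTCA. RefSeq promoters were found for 9 of the 10 members, and Gsta4 was not matched. Gsta3 held TGACATTGC at positions -121 to -113. Gstp1 held TGAGTCAGC at -74 to -66, which contains the AP-1 letters TGAGTCA, and TGAGGACGC on the opposite strand at -9 to -1. The former lies at the edge of an annotated first exon and runs into it, and the latter lies inside that exon. Mgst1 held TGACCGTGC on the opposite strand at -56 to -48, inside an annotated first exon. The windows of Gsta1, Gsta2, Gstm1, Gstm2, Gstm3 and Mgst3 held none of these letters. Sequence further upstream was not searched, so this does not show that these genes lack such elements. The promoters of Gsta1 and Gsta2 matched in 190 of 266 aligned columns (71.4%), against 96.7% for their transcripts.

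Near-identical copies limit what can be said of single members. Of all 50-base stretches of the Gsta1 transcript, 89.7% also occur in transcripts of other genes, mostly Gm3776 (82.9%), and the share was 64.2% for Gsta2, which overlaps most with Gsta1 (44.8%). For Gstp1 the share was 62.3%, all of it in Gstp2 or the pseudogene Gstp-ps. It was 28.8% for Gstm3, 23.1% for Gstm1 and 9.4% for Gstm2. No such stretch of Gsta3, Gsta4, Mgst1 or Mgst3 occurs in another gene (0.0% each). The sources used here do not say how reads that fit several genes were counted, and the split between Gsta1, Gsta2 and Gm3776, and between Gstp1 and Gstp2, is uncertain. Levels of Gm3776 followed those of Gsta1 in all groups: the ratio of Gsta1 to Gm3776 was 1.25 to 1.74 in the 4 NC_sham samples where both were above 0, 1.15 to 1.88 in NC_RIC, 1.16 to 1.33 in CDAHFD_sham and 1.12 to 1.21 in CDAHFD_RIC.

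Values are the authors' deposited FPKM, a fragment count divided by gene length and by the sample's mapped fragments, which allow levels of different genes to be compared per length. The spacing of low values gave a rough estimate of 15.9 to 26.4 M reads a sample, with 19.1 to 26.4 M in CDAHFD_RIC and 15.9 to 21.7 M in the other groups. Only 21.1% to 23.5% of low values lay close to whole reads, so these depths are unverified. On that estimate, a single read in 1 kb of transcript would come to 0.0508 FPKM at average depth. The FPKM of a sample summed to 482227 to 499036 in NC_sham, 491393 to 512036 in NC_RIC, 441294 to 495052 in CDAHFD_sham and 418945 to 443297 in CDAHFD_RIC. Differences below were fitted with limma on log2(FPKM + 1) over the 10577 genes that averaged 1 FPKM or more, and a gene is said to rise or fall at an adjusted p under 0.05 (Benjamini-Hochberg over all these genes). This scale understates changes of genes near 1 FPKM. All 10 members passed the filter, and each would have passed on the mean of any single group. The 5 comparisons share groups, so they are not independent of each other.

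The summed level of the 10 genes was 2188 ± 114 FPKM (SD) in NC_sham, 2220 ± 211 in NC_RIC, 2091 ± 127 in CDAHFD_sham and 1829 ± 205 in CDAHFD_RIC, or 0.447%, 0.442%, 0.445% and 0.42% of all FPKM. As deposited, the groups overlapped in this sum. Under median-ratio scaling its group means were 2544, 2739, 1621 and 1525 in the same order, lower on the diet. The share of each class within the sum does not change when a whole sample is multiplied by a single factor. Quantile normalization can change it, and the shares were not computed there. Mgst1, almost all of the microsomal part, was then not lower on the diet in sham mice (log2 difference 0.09). Mu class transcripts made up 6.61% ± 1.0 of it in NC_sham and 24.3% ± 1.74 in CDAHFD_sham, with 8.51% ± 1.24 in NC_RIC and 26.4% ± 5.78 in CDAHFD_RIC. The pi class, that is Gstp1, stood at 15.5% ± 3.08 in NC_sham, 18.3% ± 3.72 in NC_RIC, 9.23% ± 0.694 in CDAHFD_sham and 7.73% ± 1.72 in CDAHFD_RIC. Microsomal transcripts, almost all of them Mgst1, lay within 57.2% to 69.0% in NC_sham and 47.8% to 51.2% in CDAHFD_sham, without overlap, but within 50.3% to 59.9% in NC_RIC and 42.4% to 60.7% in CDAHFD_RIC, which overlapped. The alpha class share was 13.8% ± 1.85, 17.9% ± 1.16, 16.7% ± 1.75 and 14.6% ± 1.79 in the 4 groups in the same order as the sums.

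**Figure D1:**
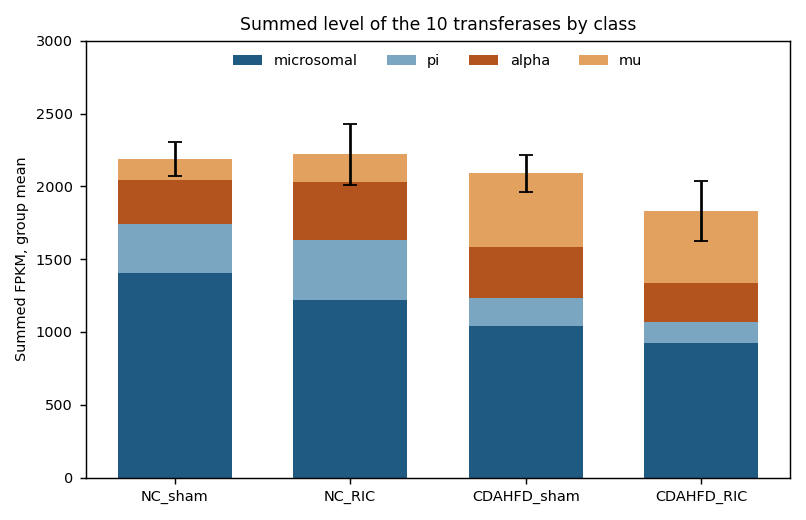
Mean summed FPKM of the 10 transferases in each group (y axis), stacked by class, with the SD of the total as error bars (n = 5, or 4 for CDAHFD_RIC). The totals as deposited lie at 2188, 2220, 2091 and 1829 FPKM (2544, 2739, 1621 and 1525 under median-ratio scaling), while the mu class part goes from 144 FPKM in NC_sham to 509 in CDAHFD_sham.

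Mgst1 was the highest of the 10 in every group and stood apart from the next. In both chow groups Gstp1 and Gsta3 followed, with overlapping ranges, then Gstm1, which stood apart from both its neighbours. The lowest place went to Gsta1, which stood apart from the next in NC_sham and overlapped Gstm3 in NC_RIC. In both CDAHFD groups Gstm1 was second and apart from its neighbours, Gstp1 and Gsta3 followed, and from there down each member overlapped the next. Gsta1 held the 5th place in CDAHFD_sham and the 8th in CDAHFD_RIC, and the last place went to Gsta2 in the former and to Mgst3 in the latter.

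In sham-treated mice the question was how CDAHFD changes these genes. Of the 10 members 7 rose and 3 fell (2 under quantile normalization, where Mgst1 was at 0.09), beside 74.2% of all tested genes called in either direction, 63.9% higher and 10.3% lower. The median member difference was 1.6 on the log2 scale against 0.45 over all tested genes. The sample ranges of CDAHFD_sham and NC_sham did not overlap for any of the 10, as was so for 59.3% of all tested genes (52.4% higher, 6.91% lower), so a call alone did not set these genes apart. The sizes were wide apart, from 77.7-fold higher for Gsta1 to 1.86-fold lower for Gsta3 (ratios of mean FPKM).

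Gsta1, an alpha class enzyme with little transcript in normal mouse liver and a known target of NRF2, had the largest rise of the 10. Its FPKM was 1.27, 0.481, 1.5, 1.27 and 1.48 in the 5 NC_sham samples, and 132, 77.6, 97.9, 57.1 and 103 in the 5 CDAHFD_sham samples. Every CDAHFD_sham sample lay far above every NC_sham sample, and NC_sham 2 was the lowest of all. The means were 1.2 ± 0.417 and 93.4 ± 28.0 (log2 difference 5.39, SE 0.21, limma adjusted p = 8.18e-14). Its copy Gm3776 stood at 0.714 ± 0.406 and 75.9 ± 21.1 FPKM in the same groups. Gsta2, which differs little from Gsta1 in sequence, was at 11.9, 10.8, 19.8, 22.6 and 16.4 FPKM in NC_sham and at 39.6, 27.0, 32.8, 48.3 and 41.3 in CDAHFD_sham. It thus started higher than Gsta1 and ended lower, with a 2.32-fold rise (log2 difference 1.19, SE 0.2, limma adjusted p = 2.72e-05).

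Gsta4, which conjugates hydroxynonenal, an aldehyde of lipid oxidation, had 26.7, 20.3, 20.3, 29.8 and 30.1 FPKM in NC_sham and 80.5, 70.2, 82.7, 68.4 and 93.7 in CDAHFD_sham. All samples on the diet were above all on chow (3.11-fold, log2 difference 1.61, SE 0.17, limma adjusted p = 7.55e-08). Gsta3 went the other way. This main constitutive alpha class enzyme of mouse liver, known for detoxifying aflatoxin, had 213, 247, 308, 269 and 252 FPKM in NC_sham and 110.0, 150.0, 110.0, 143 and 180.0 in CDAHFD_sham. It fell 1.86-fold (log2 difference -0.91, SE 0.16, limma adjusted p = 3.93e-05), so within the alpha class 3 members rose and 1 fell.

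The 3 mu class members all rose. Gstm1, the most abundant of them, was at 118, 109, 144, 119 and 119 FPKM in NC_sham and at 463, 353, 318, 354 and 357 in CDAHFD_sham (3.03-fold, log2 difference 1.59, SE 0.15, limma adjusted p = 2.72e-08). Gstm2 was at 16.0, 19.2, 22.8, 11.9 and 16.9 against 62.5, 75.9, 51.0, 58.8 and 58.7 (3.54-fold, log2 difference 1.78, SE 0.2, limma adjusted p = 1.86e-07). Gstm3 had the second-largest log2 difference of the 10, from 4.28, 4.43, 9.86, 3.32 and 2.85 FPKM to 90.7, 62.6, 64.4, 90.1 and 85. The lowest CDAHFD_sham value of Gstm3 was well above NC_sham 3, which stood above its own group (15.9-fold, log2 difference 3.83, SE 0.31, limma adjusted p = 3.08e-09).

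Gstp1, the pi class enzyme, and Mgst1, the abundant microsomal enzyme of hepatocytes, were both lower on the diet. Gstp1 had 351, 220.0, 379, 424 and 330.0 FPKM in NC_sham and 217, 173, 200, 195 and 181 in CDAHFD_sham, where the highest value was just under the lowest on chow (1.77-fold lower, log2 difference -0.79, SE 0.22, limma adjusted p = 0.00287). Mgst1 had 1462, 1397, 1205, 1408 and 1519 in NC_sham and 1040.0, 976, 944, 1015 and 977 in CDAHFD_sham. It fell 1.41-fold (log2 difference -0.49, SE 0.07, limma adjusted p = 6.27e-06), but its difference was 0.09 under quantile normalization (adjusted p = 0.316, and 5.39e-10 to 0.316 over its 30 alternatives). Mgst3, a microsomal enzyme with glutathione peroxidase activity, was at 4.43, 4.8, 5.14, 4.36 and 5.28 FPKM in NC_sham and at 53.6, 44.2, 59.2, 47.9 and 45.8 in CDAHFD_sham. Its 10.4-fold rise carried the smallest p of the 10 (log2 difference 3.13, SE 0.09, limma adjusted p = 1.12e-15).

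Scaling moved the whole comparison. The median difference of all tested genes was 0.45 as deposited, 0.5 after giving every sample the same FPKM sum, 0.00 under median-ratio scaling and -0.04 under quantile normalization. Of the genes called, 86.1%, 88.2%, 50% and 47.6% were higher in these 4 settings. With median-ratio scaling the 7 rises and 3 falls of the members were all still called, from 4.91 for Gsta1 through 0.63 for Gsta2 to -1.49 for Gsta3. With quantile normalization 7 rises and 2 falls were called.

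**Figure D2:**
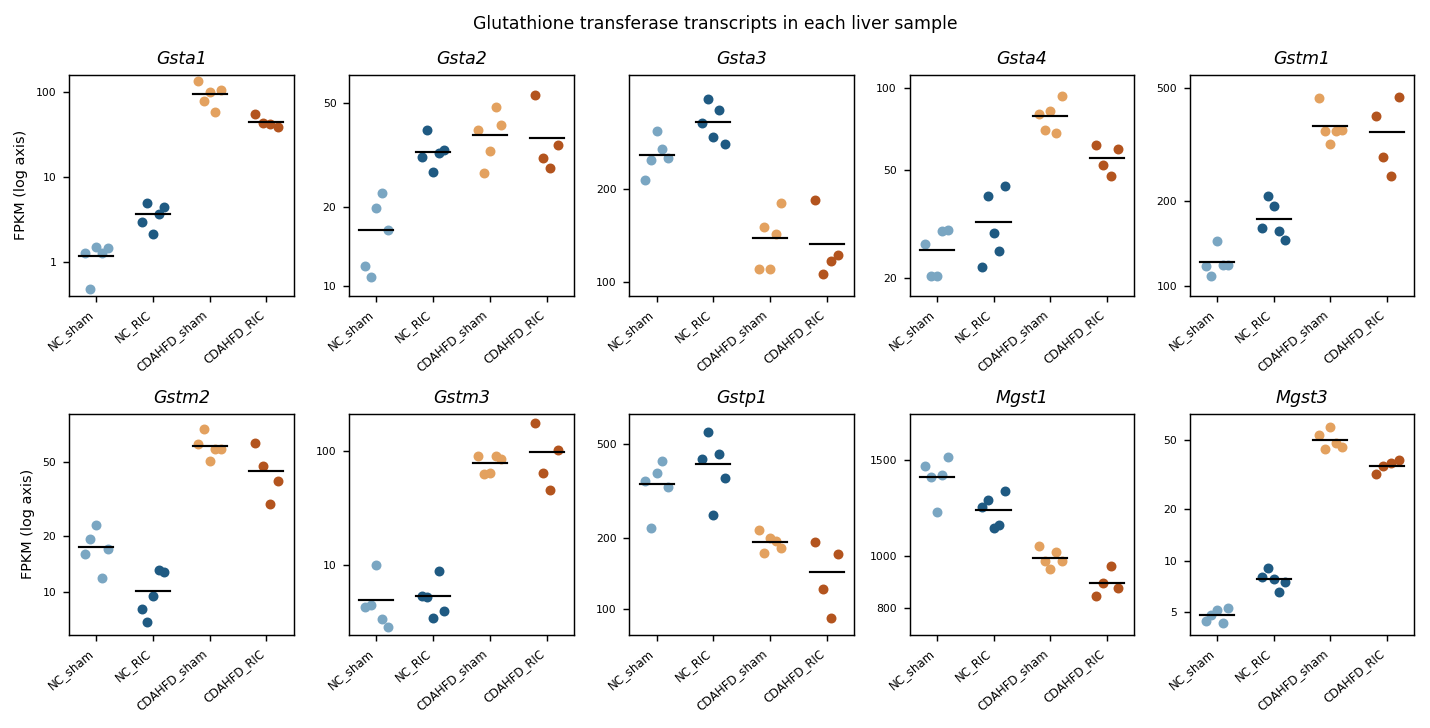
FPKM of each member in each of the 19 liver samples (y axis, log scale, with its own range per gene), by group. Points are samples in replicate order from left to right and bars are group means. Gsta1 goes from 1.2 to 93.4 FPKM between the NC_sham and CDAHFD_sham means, and Gsta3, Gstp1 and Mgst1 are lower on CDAHFD as deposited (Mgst1 not so under quantile normalization, log2 difference 0.09).

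Cell type markers moved with the diet. Summed FPKM of 14 hepatocyte markers was 57982 to 67758 in NC_sham and 50222 to 54129 in CDAHFD_sham, with 1 of 14 called higher and 8 lower. Summed macrophage markers (16 genes) went from 99.2 to 129 up to 967 to 1216, with 15 of 16 called higher. For cholangiocyte markers (12 genes) the sums were 25.1 to 43.6 and 166 to 506 (5 of 5 tested called higher), and for stellate and fibroblast markers (12 genes) 21.0 to 39.4 and 157 to 299 (11 of 11 tested called higher). Endothelial markers (10 genes) summed to 11.6 to 27.0 and 26.0 to 43.0 (8 of 9 tested called higher), lymphocyte markers (12 genes) to 1.12 to 2.82 and 4.97 to 14.1, and neutrophil markers (10 genes) to 0.272 to 0.825 and 14.8 to 37.9. These counts depend on scaling: under median-ratio scaling 1 hepatocyte marker was higher and 13 lower, with 3 and 5 under quantile normalization, and endothelial markers called higher were 5 of 9 and 2 of 9 in these settings. Cholangiocyte markers called higher were then 4 and 3 of 5, macrophage markers 14 of 16 with 1 lower in both, and stellate and fibroblast markers 11 of 11 in both. Those listed at 0 in all NC_sham samples included Timp1, Ly6g, Mpo, Elane and Ngp. Any marker under 1 FPKM in both chow groups was tested only where CDAHFD levels raised its mean, so the filter partly fixed its call. The part of these cells in the members' differences was not tested, and in whole liver fewer cells of a type and less RNA per cell cannot be told apart.

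The same diet comparison in conditioned mice, CDAHFD_RIC against NC_RIC, had 6 members higher (5 under median-ratio scaling), 3 lower (2 under quantile normalization) and 1 not called, beside 70.3% of all tested genes called (63.6% higher, 6.68% lower). The median member difference was 0.89 against 0.42 over all tested genes. Gsta1 was at 2.99, 4.96, 2.14, 3.71 and 4.48 FPKM in NC_RIC and at 54.9, 42.6, 42.0 and 38.9 in CDAHFD_RIC. It rose 12.2-fold (log2 difference 3.32, SE 0.22, limma adjusted p = 2.54e-10), with no overlap between groups, as was so for 58.0% of all tested genes (53.3% higher, 4.63% lower). Mgst3 was at 8.07, 9.03, 7.8, 6.54 and 7.5 in NC_RIC and at 31.8, 35.5, 36.6 and 38.2 in CDAHFD_RIC, again without overlap (4.56-fold, log2 difference 2.06, SE 0.1, limma adjusted p = 2.82e-12).

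Gsta2 was the member with no diet call in conditioned mice. Its FPKM was 31.1, 39.5, 27.2, 32.2 and 33.0 in NC_RIC and 53.6, 30.7, 28.2 and 34.5 in CDAHFD_RIC. Except for CDAHFD_RIC 1, the values of both groups lay in the same range (log2 difference 0.13, 95% interval -0.31 to 0.58, limma adjusted p = 0.581). The sign turned without CDAHFD_RIC 1 (-0.06), under median-ratio scaling (-0.42) and under quantile normalization (-0.23), and no alternative gave a call (adjusted p 0.131 to 0.809). Gsta4 was at 21.9, 40.2, 29.3, 25.2 and 43.8 in NC_RIC and at 61.8, 52.4, 47.5 and 59.6 in CDAHFD_RIC. It rose 1.73-fold (log2 difference 0.81, SE 0.18, limma adjusted p = 0.000541), a call that ended with median-ratio scaling (0.26, adjusted p = 0.204, and 4.65e-05 to 0.204 over its 30 alternatives).

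The 3 mu class members rose in conditioned mice too. Their class relatives Gstm4 (0.8, limma adjusted p = 0.00326), Gstm5 (1.16, adjusted p = 1.28e-06) and Gstm7 (0.73, adjusted p = 0.000788) were also called higher as deposited. Gstm6 was not called (0.27, adjusted p = 0.258). Of 15 other transferases and related enzymes tested, 7 were higher as deposited and 4 under median-ratio scaling, beside 63.6% of all tested genes as deposited. Gstm1 went from 161, 209, 192, 156 and 146 FPKM in NC_RIC to 400.0, 287, 244 and 466 in CDAHFD_RIC (2.02-fold, log2 difference 0.98, limma adjusted p = 3.19e-05). Gstm2 went from 8.03, 6.88, 9.43, 13.1 and 12.8 to 63.2, 47.4, 29.7 and 39.5 (4.47-fold, 2.04, adjusted p = 1.07e-07). Gstm3 went from 5.36, 5.21, 3.4, 8.74 and 3.9 to 177, 64.2, 45.4 and 102 (18.2-fold, 3.83, adjusted p = 1.08e-08). CDAHFD_RIC 3 was the lowest of its group for each of the 3 genes, and none of them overlapped between groups.

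Of the falls in conditioned mice, that of Gstp1 was the largest, from 433, 562, 250, 454 and 359 FPKM to 193, 121, 91.2 and 171 (2.86-fold lower, log2 difference -1.52, limma adjusted p = 1.08e-05). Gsta3 fell from 326, 391, 295, 360.0 and 279 to 184, 106, 117 and 122 (2.5-fold lower, -1.34, adjusted p = 1.14e-06). Mgst1 fell from 1230.0, 1267, 1124, 1139 and 1313 to 842, 891, 957 and 871 (1.36-fold lower, -0.45, adjusted p = 5.13e-05), though under quantile normalization its difference was 0.14 (adjusted p = 0.135, and 4.6e-09 to 0.135 over its 30 alternatives). Neither Gstp1 nor Gsta3 lost its call under any alternative.

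The effect of conditioning itself was compared first in chow-fed mice. Of the 10 members 3 rose, Gsta1, Gsta2 and Mgst3, and none fell, beside 1.18% of all tested genes called, 0.321% higher and 0.86% lower. At an unadjusted p under 0.05 there were 7 members, Gstm2 and Mgst1 among them with differences below 0, beside 16.5% of all tested genes. The median member difference was 0.33 against -0.06 over all tested genes. As Gsta1 and Gsta2 share much of their sequence, these are not 3 separate observations. Without NC_sham 2, or without NC_RIC 2, only Mgst3 was called among the members, and the count over all tested genes went from 125 to 13 and to 15. Leaving out NC_sham 1, 3 or 5, NC_RIC 3, 4 or 5, CDAHFD_sham 3, 4 or 5, or CDAHFD_RIC 2 or 4 brought that count to 24 to 81.

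Gsta1 lay between 2.14 and 4.96 FPKM in NC_RIC and between 0.481 and 1.5 in NC_sham, so the groups did not overlap (3.66 ± 1.13 against 1.2 ± 0.417, 3.04-fold, log2 difference 1.07, SE 0.21, limma adjusted p = 0.0183). The call ended without NC_sham 2 (0.93, adjusted p = 0.0667), without NC_RIC 2 (0.97, 0.0574) and with no filter on low values (0.061), and over its 30 alternatives the adjusted p was 0.0076 to 0.0667. Gm3776 stood at 2.68 ± 0.932 in NC_RIC against 0.714 ± 0.406. Gsta2 was 2.0-fold higher at 32.6 ± 4.45 against 16.3 ± 5.03 FPKM, and its lowest NC_RIC value, 27.2, was above the highest in NC_sham, 22.6 (log2 difference 1.0, SE 0.2, limma adjusted p = 0.0246). Its call ended without NC_sham 1 (0.079), NC_sham 2 (0.0701), NC_sham 5 (0.0528) or NC_RIC 2 (0.0747) and with no filter (0.0712), and the adjusted p was 0.00557 to 0.079 over the 30 alternatives.

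Mgst3 rose from 4.8 ± 0.411 to 7.79 ± 0.902 FPKM with conditioning on chow, and its lowest value in NC_RIC, 6.54, was above the highest in NC_sham, 5.28 (1.62-fold, log2 difference 0.6, SE 0.09, limma adjusted p = 0.00566). It was called in all 30 alternatives (adjusted p 0.00116 to 0.0379). Gstm1 was also apart between the groups, at 146 to 209 against 109 to 144, but was not called (log2 difference 0.49, 95% interval 0.17 to 0.81, adjusted p = 0.121) except with array weights (0.55, adjusted p = 0.0304). For comparison, 4.75% of all tested genes had ranges that did not overlap, 0.993% higher and 3.75% lower. Gstm2 overlapped, with NC_RIC at 6.88 to 13.1 and NC_sham at 11.9 to 22.8, and was not called (-0.74, -1.16 to -0.32, adjusted p = 0.0754), although it was without NC_sham 4 (-0.86, adjusted p = 0.042) and with array weights (adjusted p = 0.0187, the lowest of 0.0187 to 0.202 over its alternatives). The 5 others had adjusted p-values of 0.173 for Mgst1, 0.264 for Gsta3, 0.395 for Gsta4, 0.606 for Gstp1 and 0.877 for Gstm3.

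Summed hepatocyte markers stood at 69398 to 81249 FPKM in NC_RIC, above the 57982 to 67758 of NC_sham, with 1 of 14 called higher and 0 lower as deposited and 0 of 14 called under any of the 3 rescalings. The median difference of these markers was -0.18, against -0.06 over all tested genes, so the sum and the typical marker differed in sign. Macrophage (81.0 to 139), cholangiocyte (24.8 to 32.8), stellate and fibroblast (23.2 to 30), endothelial (5.85 to 16.2), lymphocyte (1.12 to 3.14) and neutrophil (0.37 to 2.91) sums overlapped those of NC_sham. None of their tested markers was called by limma. At an unadjusted p under 0.05 were 4 of 14 hepatocyte, 1 of 5 cholangiocyte, 4 of 9 endothelial and 1 of 3 neutrophil markers tested. Of 16 macrophage, 11 stellate and fibroblast and 1 lymphocyte marker tested, 0 were, beside 16.5% of all tested genes. Listed at 0 in all NC_RIC samples were Ly6g, Mpo, Elane and Camp. The part of these markers in the differences of Gsta1, Gsta2 and Mgst3 was not tested.

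On CDAHFD, conditioning went with lower levels of 3 members, Gsta1, Gsta4 and Mgst3 (without Gsta4 under each of 3 rescalings), and none rose, beside 27.3% of all tested genes called, 8.72% higher and 18.6% lower. The median member difference was -0.32 against -0.08 over all tested genes. At an unadjusted p under 0.05 there were 4 members, the fourth being Gstm2, and 39.9% of all tested genes, so 4 of 10 is near the background. These 3 members were also apart between the groups, as were 18.4% of all tested genes (5.26% higher, 13.1% lower).

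Gsta1 had 132, 77.6, 97.9, 57.1 and 103 FPKM in CDAHFD_sham and 54.9, 42.6, 42.0 and 38.9 in CDAHFD_RIC. The highest conditioned sample lay just under the lowest sham sample (2.09-fold lower, log2 difference -1.01, SE 0.22, limma adjusted p = 0.0032), and the fall was called in all 30 alternatives (0.000889 to 0.0243). Gm3776 stood at 38.3 ± 7.35 against 75.9 ± 21.1. Mgst3 fell from 50.1 ± 6.18 to 35.5 ± 2.73 FPKM, with 44.2 the lowest sham and 38.2 the highest conditioned value (1.41-fold lower, log2 difference -0.48, SE 0.1, limma adjusted p = 0.00208, and 0.000897 to 0.0154 over 30 alternatives). In both genes the conditioned mice on the diet still stood far above either chow group.

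Gsta4 went from 79.1 ± 10.3 to 55.3 ± 6.58 FPKM and fell 1.43-fold (log2 difference -0.51, SE 0.18, limma adjusted p = 0.0415). This call was lost in 15 of 30 alternatives (adjusted p 0.0201 to 0.119), among them leaving out CDAHFD_sham 1 (0.0714), CDAHFD_sham 3 (0.0801), CDAHFD_sham 5 (0.0899), CDAHFD_RIC 2 (0.087), CDAHFD_RIC 3 (0.119) or CDAHFD_RIC 4 (0.0503), and all 3 rescalings (0.0539 to 0.118). The other 7 members were not called. Gstm2 stood at 44.9 ± 14.2 against 61.4 ± 9.12 (log2 difference -0.48, 95% interval -0.92 to -0.04, adjusted p = 0.0961) and was called without CDAHFD_RIC 1 (-0.66, adjusted p = 0.0339, the lowest of 0.0339 to 0.318 over its alternatives). Gstp1 stood at 144 ± 46.5 against 193 ± 17.3 (-0.48, -0.95 to 0.0, adjusted p = 0.128) and Mgst1 at 890.0 ± 49.1 against 990.0 ± 37.6 (-0.15, -0.32 to 0.01, adjusted p = 0.144).

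For the remaining 4 members the ranges with and without conditioning on CDAHFD overlapped. Gsta2 had a difference of -0.06 (95% interval -0.5 to 0.39, limma adjusted p = 0.864), Gsta3 of -0.07 (-0.42 to 0.27, adjusted p = 0.772), Gstm1 of -0.12 (-0.46 to 0.22, adjusted p = 0.624) and Gstm3 of 0.13 (-0.56 to 0.83, adjusted p = 0.794). These misses do not show that the genes were alike in both groups, since the intervals reach down to -0.42 or lower. Gstm3 varied most, with CDAHFD_RIC 1 at 177 FPKM and CDAHFD_RIC 3 at 45.4, and its sign turned without CDAHFD_RIC 1 (-0.21).

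The summed FPKM of all genes was lower in CDAHFD_RIC than in CDAHFD_sham, at 418945 to 443297 against 441294 to 495052. After giving every sample the same FPKM sum, or under median-ratio scaling or quantile normalization, 2 members were called lower each time. Stellate and fibroblast markers summed to 122 to 195 FPKM in CDAHFD_RIC against 157 to 299, with 6 of 11 tested called lower. Macrophage markers summed to 810.0 to 1503 against 967 to 1216, with 4 of 16 called higher, and hepatocyte markers to 47948 to 61260 against 50222 to 54129, with 2 of 14 called higher and 3 lower (1 and 1 under quantile normalization, 4 and 3 with a common FPKM sum). The sums of cholangiocyte (123 to 405), endothelial (14.5 to 39.9), lymphocyte (4.75 to 10.8) and neutrophil markers (14.4 to 21.5) overlapped those of CDAHFD_sham. Of 3 tested neutrophil markers 1 was called lower as deposited and 0 under each of the 3 rescalings. None of the tested cholangiocyte, endothelial or lymphocyte markers was called. Mpo was listed at 0 in all CDAHFD_RIC samples. Their part in the members' differences was not tested.

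The interaction asked whether the effect of conditioning differed between the diets. It passed for Gsta1, Mgst3 and Gsta2 (4 members under median-ratio scaling and under quantile normalization), all with a lower response on CDAHFD than on chow, beside 6.72% of all tested genes (3.59% higher, 3.13% lower). The median member value was -0.67 against -0.03 over all tested genes. For Gsta1 the effect of conditioning was 1.07 on chow and -1.01 on CDAHFD, a difference of -2.08 (SE 0.3, limma adjusted p = 0.000892, and 0.000392 to 0.00384 over 29 alternatives). For Mgst3 it was 0.6 and -0.48, a difference of -1.08 (SE 0.13, limma adjusted p = 0.00039, and 0.000193 to 0.00172 over 29 alternatives). In both genes the 4 groups had the same order of means, NC_sham lowest, then NC_RIC, CDAHFD_RIC and CDAHFD_sham, and no 2 neighbours in this order overlapped.

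The interaction of Gsta2 was -1.06 (SE 0.29, limma adjusted p = 0.0359), from 1.0 on chow and -0.06 on CDAHFD. It was lost in 14 of 29 alternatives (adjusted p 0.0117 to 0.0901), among them no filter (0.0901) and leaving out any 1 of 12 samples, which were NC_sham 1, 2 or 5, NC_RIC 1, 2 or 5, CDAHFD_sham 1, 4 or 5, and CDAHFD_RIC 2, 3 or 4 (0.0505 to 0.0757). Gsta4 was just short of the threshold (-0.8, 95% interval -1.31 to -0.29, adjusted p = 0.0543) and passed without NC_RIC 1 (0.0268), NC_RIC 4 (0.0395) or CDAHFD_sham 2 (0.0442) and in 3 further alternatives. Gstm1 (-0.61, adjusted p = 0.102) passed without CDAHFD_RIC 4 (-0.76, 0.036). The values of Gsta3 (-0.43, 0.268), Gstm2 (0.26, 0.634), Gstp1 (-0.73, 0.164) and Mgst1 (0.05, 0.83) were not called, and that of Gstm3 was 0.0 (95% interval -0.96 to 0.96, adjusted p = 0.999).

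**Figure D3:**
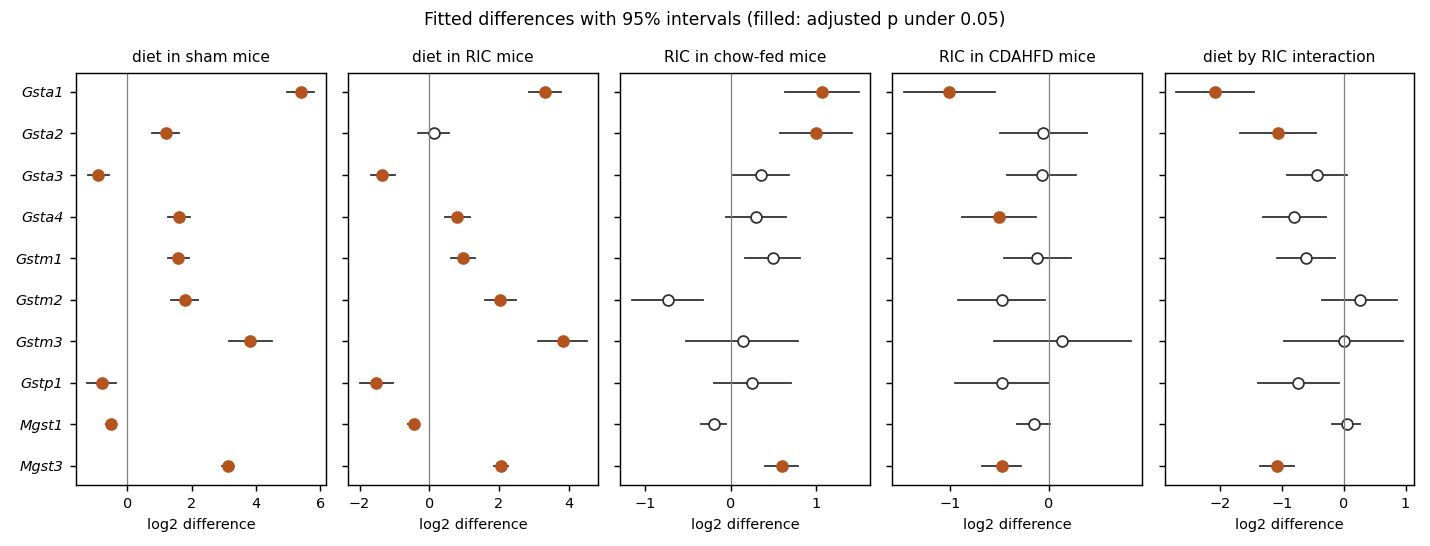
Fitted log2 differences of each member (x axis, log2(FPKM + 1) scale, with a range of its own in each panel) in the 5 comparisons, with 95% intervals as lines and filled points for an adjusted p under 0.05. Gsta1 and Mgst3 are filled in all 5 panels and lie above 0 for conditioning on chow (1.07 and 0.6) and below 0 on CDAHFD (-1.01 and -0.48). The Mgst1 points of the diet panels lie below 0 as deposited and at 0.09 and 0.14 under quantile normalization.

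The members varied within groups along different lines. After each group's mean was removed, the 45 pairs of members had a median Pearson r of 0.18 over the 19 samples, from -0.6 between Gstm3 and Mgst1 to 0.71 between Gsta2 and Gstp1, and 12 pairs were below 0. Gsta1 and Gsta2 had an r of 0.41, against 0.95 for Gsta1 and Gm3776, which share much of their sequence. The points share libraries, depth and scaling, and these values are descriptions without a test. CDAHFD_RIC 1 was the highest of its group for 7 of the 10 members and CDAHFD_RIC 3 the lowest for 6. NC_RIC 2 was the highest for 6, NC_RIC 3 the lowest for 5, and NC_sham 3 and CDAHFD_sham 1 were each the highest for 5.

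**Figure D4:**
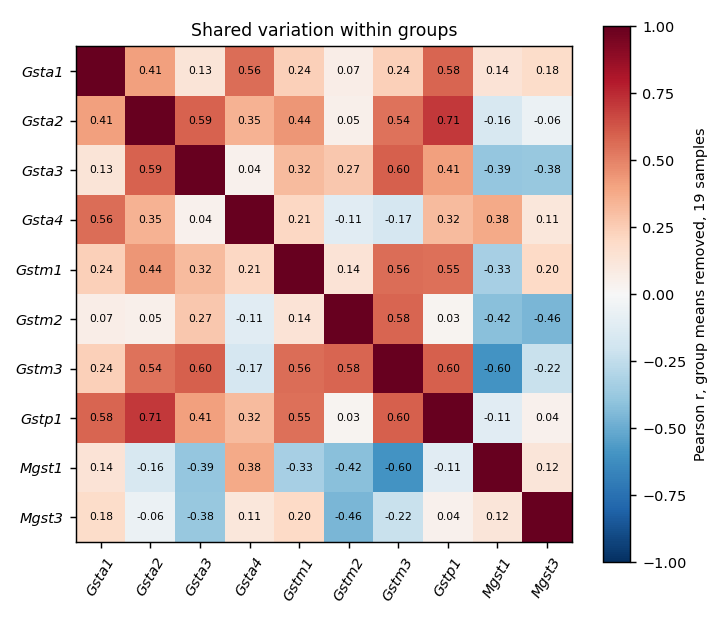
Pearson correlation of log2(FPKM + 1) between pairs of members over the 19 samples after each group's mean was removed (colour and printed value). The median pair is at 0.18, with 0.71 for Gsta2 and Gstp1 at the top and -0.60 for Gstm3 and Mgst1 at the bottom.

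The tested genes whose within-group values were most like those of Gsta1, members and predicted genes aside, were Tor2a (0.74), Gpatch4 (0.73) and Tcea3 (0.71). For Gsta2 they included Wbp1 (0.85) and Srp9 (0.82), and for Gstp1 again Wbp1 (0.78), and Nox4 (0.77). Gsta3 was most like Akr1c13 (0.87), Nat8f1 and Cebpg (0.86 each), and Gsta4 most like Mrpl35 (0.88), Lrrc57 and Dtwd1 (0.84 each). Among the mu class, Gstm1 went with Prep and Enho (0.78 each) and Abtb1 (0.77), Gstm2 with Enpp2 (0.86), Ghr (0.8) and its class member Gstm6 (0.77), and Gstm3 with Saa4 (0.9), Thrsp (0.86) and Slc6a9 (0.85). Mgst1 was most like Pex5 (0.84), Pank1 (0.78) and Nhp2 (0.76), and Mgst3 most like Slc2a8 (0.87), Ell (0.84) and Rab13 (0.83). All are Pearson r over 19 samples, among the highest of the 10577 tested genes, and carry no test.

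Other genes of glutathione metabolism were counted from lists by role. The counts for diet in sham mice below stand beside 63.9% of all tested genes called higher and 10.3% called lower, and those for conditioning on CDAHFD beside 8.72% and 18.6%. Genes under 1 FPKM in both chow groups were tested only where CDAHFD levels raised their mean, so the filter partly fixed such rises. Alox5ap, Hpgds, Ggct, Abcc4, Abcc5 and Abcb1a were such genes. Of 24 other glutathione transferases and related enzymes, 21 were in the table and 15 were tested. On the diet in sham mice 5 of these rose, 3 fell and 7 were not called as deposited, while 4 were higher and 8 lower under median-ratio scaling and 4 and 6 under quantile normalization (median 0.17, against 1.6 for the 10 members and 0.45 for all tested genes). Alox5ap, which presents arachidonic acid to the leukotriene pathway in myeloid cells, rose from 0.609 ± 0.242 to 7.23 ± 0.178 FPKM (log2 difference 2.37, limma adjusted p = 3.45e-11). Hpgds, the prostaglandin D synthase of blood cells, rose from 0.0526 ± 0.0376 to 1.86 ± 0.447 (1.43, adjusted p = 1e-08), and Gstm5 rose from 4.37 ± 0.387 to 11.5 ± 1.93 (1.21, adjusted p = 2.36e-07). Gstz1, an enzyme of tyrosine breakdown, fell from 63.1 ± 1.33 to 34.2 ± 7.46 (-0.89, adjusted p = 1.18e-06). With conditioning none of the 15 was called on chow by limma (1 at an unadjusted p under 0.05, beside 16.5% of all tested genes). On CDAHFD 2 were higher and 2 lower. Both that fell share sequence with Gstp1, namely Gstp2 (62.7 ± 20.8 to 29.7 ± 8.92 FPKM, -1.05, limma adjusted p = 0.00692) and Gstp-ps (38.9 ± 12.0 to 19.3 ± 4.4, -0.95, adjusted p = 0.00651), while Gstp1 itself was not called.

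Among 9 tested genes of glutathione synthesis and supply 6 rose on the diet in sham mice and 1 fell (3 and 2 under median-ratio scaling), near the shares of all tested genes. Gss, glutathione synthetase, rose from 6.83 ± 1.11 to 26.4 ± 3.36 FPKM (3.86-fold, log2 difference 1.81, limma adjusted p = 1.33e-10). Slc3a2, the shared heavy chain of amino acid exchangers, rose 3.74-fold (1.55, adjusted p = 7.67e-10), the mitochondrial glutathione carrier Slc25a39 1.6-fold (0.66, adjusted p = 1.02e-06) and thioredoxin reductase Txnrd1 1.8-fold (0.78, adjusted p = 4.3e-06), the last pair without a call under median-ratio scaling (0.09 and 0.23). Of 10 tested genes of glutathione and conjugate breakdown 5 rose and 1 fell, near or under those shares, but 3 rose and 5 fell under median-ratio scaling and 2 and 4 under quantile normalization. The dipeptidase Cndp2 rose 4.44-fold (1.89, adjusted p = 1.03e-11), the aminopeptidase Anpep 2.68-fold (1.31, adjusted p = 3.24e-07) and Ggct 2.26-fold (0.61, adjusted p = 6.48e-07, but 0.07 and not called under quantile normalization), and Nat8, which acetylates cysteine conjugates, fell 2.58-fold (-1.27, adjusted p = 0.000369). In CDAHFD mice 1 gene of each list fell with conditioning, and none rose as deposited (1 breakdown gene under each of the 3 rescalings). These were Gss (to 18.6 ± 2.85 FPKM, -0.48, limma adjusted p = 0.00959) and the glutathione-degrading Chac2 (21.1 ± 1.61 to 13.9 ± 2.13 FPKM, -0.58, adjusted p = 0.00113).

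Of 8 tested efflux genes 4 rose on the diet in sham mice and 1 fell, beside 63.9% and 10.3% of all tested genes. Under median-ratio scaling 4 fell, and under quantile normalization 3. Of those that rose, Abcc4, Abcc5 and Abcb1a passed the filter only through their CDAHFD levels. The conjugate pumps Abcc4 (0.186 ± 0.0645 to 2.86 ± 0.458 FPKM, log2 difference 1.69, limma adjusted p = 3.08e-10) and Abcc5 (0.346 ± 0.108 to 2.63 ± 0.362, 1.43, adjusted p = 2.88e-10) rose, as did the drug pump Abcb1a (1.64, adjusted p = 2.89e-09). Abcc2, the canalicular conjugate pump, was among 2 (3 under median-ratio scaling and quantile normalization) that rose with conditioning on CDAHFD (50.6 ± 4.71 to 77.4 ± 12.5 FPKM, 0.59, adjusted p = 0.000535), where 1 fell as deposited and none after any of the 3 rescalings. Of 18 tested regulators 5 rose on the diet in sham mice, 2 fell and 11 were not called, a lower share of rises than the 63.9% of all tested genes, whereas 2 rose and 10 fell under median-ratio scaling and 3 and 9 under quantile normalization. Nfe2l2 rose from 10.6 ± 1.24 to 41.1 ± 2.03 FPKM (3.86-fold, log2 difference 1.86, limma adjusted p = 2.94e-11), its small partner Mafk 2.76-fold (1.18, adjusted p = 3.93e-10), its inhibitor Keap1 1.56-fold (0.56, adjusted p = 6.94e-05) and the aryl hydrocarbon receptor Ahr 1.9-fold (0.83, adjusted p = 2.58e-05). Under median-ratio scaling neither Keap1 (0.04) nor Ahr (0.3) was called, nor was Keap1 under quantile normalization, while Nfe2l2 and Mafk were called under all of their alternatives. With conditioning on CDAHFD 2 regulators rose and 4 fell as deposited, but 3 rose and 2 fell with a common FPKM sum, and 4 rose and 2 fell under median-ratio scaling and under quantile normalization. Nfe2l2 fell to 24.8 ± 2.51 FPKM (log2 difference -0.71, limma adjusted p = 0.000413), Keap1 to 6.83 ± 0.758 (-0.35, adjusted p = 0.0237) and Ahr to 5.52 ± 0.675 (-1.1, adjusted p = 7.66e-05). The call of Keap1 ended in 9 of 30 alternatives (adjusted p 0.0032 to 0.0987), among them leaving out CDAHFD_sham 1 or 3, or CDAHFD_RIC 1, 3 or 4. Of the 18 regulators the interaction passed for 1 higher, Bach1 (0.75, limma adjusted p = 0.001), and 1 lower, Ahr (-0.91, adjusted p = 0.0128). It did not pass for Nfe2l2 (-0.33, adjusted p = 0.216), which stood at 8.02 ± 1.73 FPKM in NC_RIC. In the other lists it passed as deposited for Gstz1 (0.63, 0.0318), Abcc2 (0.79, 0.0025), Chac2 (-0.62, 0.018) and Gss (-0.59, 0.0442, not with a common FPKM sum). Of all tested genes 3.59% were higher and 3.13% lower. The 2 regulators that rose with conditioning on CDAHFD were Bach1 and Rxra. Bach1, a repressor at the elements that NRF2 binds, went from 6.99 ± 0.596 to 9.95 ± 1.16 FPKM (0.45, limma adjusted p = 0.00104). The nuclear receptor partner Rxra went from 24.5 ± 2.83 to 35.2 ± 2.13 (0.51, adjusted p = 0.00208). In chow-fed mice conditioning gave no call in any of these 4 lists (0 of 9, 0 of 10, 0 of 8 and 0 of 18 by limma, beside 1.18% of all tested genes), except for 1 breakdown gene called higher under median-ratio scaling and under quantile normalization. At an unadjusted p under 0.05 there were 0, 2, 1 and 6 genes in these lists, beside 16.5% of all tested genes.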

How the data were processed

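Liver RNA was sequenced from 19 mouse samples in 4 groups taken from the sample labels. RNA was extracted with Trizol, per the labels' protocols. The submitters' processing notes name mm10, HISAT2 2.2.1, HTSeq 0.13.5, Trimmomatic 0.38, FastQC 0.11.9, DESeq2 1.18.1 and R 3.4.1, without roles. A single table of FPKM values, with 1 column for each sample, was deposited by the authors. The sources used here do not say how reads were assigned to genes or whether strand was used. Of 55335 entries, the 3225 without a gene name (0.123% to 0.204% of the FPKM) were left out.

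Values were used as log2(FPKM + 1), and the 10577 genes that averaged 1 FPKM or more were fitted with limma 3.58.1 in R 4.3.3 (1 mean per group over all 19 samples, eBayes with a trend, two-sided tests, Benjamini-Hochberg adjustment). Folds are ratios of mean FPKM. At most 0.00945% of values were equal between any pair of samples, so none was a duplicate. Only 21.1% to 23.5% of low values were within 2% of whole reads, a margin that widens with the read number. No count test was therefore run, and the depths are unverified estimates. The fit was tested on simulated data.

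The members, lists, tests and alternatives were chosen with earlier results of these data known. Named genes are the 10 members, up to 4 genes of each glutathione list with the smallest p for diet in sham mice and up to 2 with the smallest p for RIC on CDAHFD, and the 3 genes most like each member within groups. Gm3776, which shares sequence with Gsta1, was added after its values were seen, as were the mu class relatives Gstm4 and Gstm7. A few genes are not reported here by name. Shared sequence was measured as 50-base stretches of GENCODE M21 transcripts. Promoters are from RefSeq, aligned with biopython 1.88. Alternatives covered the pseudocount, the filter, scaling, the groups fitted, a replicate block, sample weights and leaving out samples.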

Additional observations from a re-analysis of the deposited data

Results flagged for a closer look

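Among 40 groups of values (10 members in 4 groups), 4 held a sample far from the others by Dixon's criterion, which chance meets in about 1 of 20 groups. Gsta1 in NC_sham 2 was at 0.481 FPKM against 1.27 to 1.5 in the other 4 samples, and Gm3776 was listed at 0 in that sample. Gstm1 in NC_sham 3 was at 144 FPKM against 109 to 119 in the others, and Gstm3 in the same sample was at 9.86 against 2.85 to 4.43. Gstm1 in CDAHFD_sham 1 was at 463 FPKM against 318 to 357.

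The effect of conditioning differed between the diets for 3 members by the limma interaction. For Gsta1 the difference was -2.08 (adjusted p = 0.000892), for Mgst3 -1.08 (adjusted p = 0.00039) and for Gsta2 -1.06 (adjusted p = 0.0359), a call lost in 14 of 29 alternatives (adjusted p up to 0.0901), among them leaving out any 1 of 12 samples. The first 2 moved in opposite directions on the diets, each with no overlap between conditioned and sham samples. Ranges were apart for 4.75% of all tested genes on chow and for 18.4% on CDAHFD. The Gsta1 rise on chow lost its call in 3 of 30 alternatives (limma adjusted p up to 0.0667), which were without NC_sham 2, without NC_RIC 2 and with no filter. Gsta2 moved on chow, a call lost in 5 of 30 alternatives, and not detectably on CDAHFD.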

How the results depend on the processing

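Each member's 5 differences were recomputed under 30 alternatives (29 for the interaction). Of 1490 recomputed values 1406 kept direction and side of the threshold, 38 lost a call, 11 gained one and 35 changed sign. All 5 calls of Mgst3, and those of Gsta1 for diet, for RIC on CDAHFD and for the interaction, held throughout.

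For Gsta2 the diet difference in RIC mice was -0.42 under median-ratio scaling and -0.23 under quantile normalization (-0.06 to 0.24 on leaving out 1 sample), and that of RIC on CDAHFD 0.05 with a common FPKM sum, 0.04 under median-ratio scaling and 0.03 under quantile normalization (-0.25 to 0.05 on leaving out 1). For Gsta3 the RIC difference on CDAHFD was 0.04, 0.03 and 0.0 under the same 3 scalings, 0.11 without CDAHFD_sham 2 and 5, and -0.24 to 0.03 on leaving out 1 sample. The Gstm3 interaction was 0.14, 0.02 and 0.04 under those scalings and -0.35 to 0.3 on leaving out 1 sample. Leaving out 1 sample also gave -0.03 to 0.38 for Gstm3 with RIC on chow, -0.21 to 0.43 for Gstm3 and -0.27 to 0.04 for Gstm1 with RIC on CDAHFD. Mgst1 turned to 0.09 (sham) and 0.14 (RIC) for diet under quantile normalization. None of these was called. The cause was not tested.

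Genes called for diet in sham mice (7852) were 12361 with no filter and 3562 with a mean of at least 5 FPKM, where the number of genes tested differs. In RIC mice (7435) they were 3401 with that filter. For RIC on chow (125) the count was 194 with a pseudocount of 0.01, 48 with no filter, 59 with quantile normalization, 46 with only the groups compared, 401 with array weights, and 13 to 184 on leaving out 1 sample. Members called higher there were 1 with no filter and 1 to 3 on leaving out 1 sample, and members called lower were 1 with array weights and 0 to 1 on leaving out 1. For RIC on CDAHFD (2886) the count was 1480 with a mean of at least 5 FPKM and 1868 with only the groups compared. The interaction (711) had 386 with that filter, 1266 without CDAHFD_sham 2 and 5, and 438 (without NC_sham 2) to 1042 on leaving out 1 sample, with 469 without CDAHFD_sham 3.

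The share of calls that were higher moved under scaling also in RIC mice (90.5%, 50.7% with median-ratio scaling, 47.2% with quantile normalization), for RIC on chow (27.2%, then 14.8% with a common sum, 62.2% and 64.4%), for RIC on CDAHFD (31.9%, then 55.5%, 55.8% and 50.5%) and for the interaction (53.4%, then 81.1% with a common sum).

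Deviations of samples with the same replicate number had an r of -0.174 to 0.176 over 18 pairs, 4 of them above 0.1. Whether samples with the same number belong together, for example as a batch, was not tested. With a replicate block 79 genes were called for RIC on chow, and among the members the calls of Gsta2 for the interaction (adjusted p = 0.0503) and of Gsta4 for RIC on CDAHFD (-0.42, adjusted p = 0.0774) ended, and no other.

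Depth limits the lowest member most: Gsta1 in NC_sham stood at 1.2 FPKM. By the unverified depth estimate, 1 read in 1 kb would be worth 0.0508.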
